A study of Mus musculus with 12 samples.

Results

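The genes described here code for the enzymes that break down proteins, sugars, sulfated sugars and lipids inside lysosomes, and for the membrane proteins that hold these organelles together. A list of 41 such genes was looked up by symbol among the 55401 rows of the expression table, and all 41 were found, in 1 row each. They comprised 8 cysteine cathepsins and legumain, 3 other proteases, 7 membrane proteins, 11 glycosidases, 3 sulfatases, 7 lipid-handling proteins and 2 acid phosphatases. All 41 passed the filter on low values that decided which genes were tested.

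The tumors were grown from 4T1 cells, a mouse mammary carcinoma line, injected orthotopically into Balb/c mice. Each of 4 proteins was given to mice whose tumors gave 3 libraries: a control isotype IgG1-Fc (control IgG), recombinant IL10-Fc (interleukin-10 fused to an Fc domain), an antibody (aCSF1R) that binds the receptor of colony stimulating factor 1, and BF10, such an antibody with human interleukin-10 fused to its heavy chains. The labels start the dosing at a tumor volume of 100 mm3 and name 6 doses, while the series text and the methods name fewer, so the number of doses is uncertain. All 12 tumors thus share the 4T1 line, the strain and the schedule, the labels give no age or genotype beyond the strain, and nothing in the labels says that libraries of a group came from separate cages or days, so the p-values measure the spread between these tumors.

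Lysosomes are acidic organelles in which hydrolases digest material that a cell has taken up or marked for turnover. Most hydrolases reach them with a mannose 6-phosphate tag, a proton pump called the V-ATPase acidifies them, and transcription factors of the MiT family (Tfeb, Tfe3, Mitf and Tfec) act on many of their genes through the sequence CACGTG, called the CLEAR element in its longer form. In tumors, macrophages are rich in lysosomes and carry the receptor that aCSF1R and BF10 bind, while cathepsin K, tartrate-resistant acid phosphatase (Acp5) and the V-ATPase subunit Atp6v0d2 are best known from osteoclasts, the bone-resorbing relatives of macrophages.

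The upstream sequences are shown first, because they show which members carry the letters through which lysosomal genes are known to be addressed. RefSeq promoters of GRCm38.p6 were at hand for 36 of the 41 members, and the 250 bases before each start were searched on both strands. CACGTG was found in 11 of the 36 members, 30.6%, and in 6.86% of the 27025 genes in the same table. The longer TCACGTGA, which contains CACGTG, was found in 4 members, 11.1%, against 0.907% of all genes. TCACATGA, a related sequence known as a target of Mitf, was found in 2 members (5.56%), Acp5 and Gla, against 0.984% of all genes. The motifs were chosen with the expression values known. The 4 members with TCACGTGA (Ctsa, Ctsd, Gla and Mcoln1) are shown in 30 bases around 1 site each. The length was kept short because these bases overlap an annotated exon of Ctsa, Ctsd, Mcoln1 or, for Gla, of its neighbour Hnrnph2. Gla also holds TCACGTGA at 187 to 195 bases before its start and its TCACATGA at 203 to 211 bases. Ctsd and Mcoln1 each hold a further CACGTG. These further sites are not shown, and their overlap with exons was not looked up. Lgmn, which holds CACGTG alone, and Acp5, which holds TCACATGA, are shown in 60 bases that lie within the annotated gene and outside its annotated exons. Lgmn, Ctsa and Acp5 have 2, 2 and 3 starts in the table, of which 1 is shown. Each sequence runs 5′ to 3′ on the strand of the gene, and capitals mark the motif.
Ctsa, chr2:164833743-164833772, plus strand: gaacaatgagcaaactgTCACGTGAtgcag
Ctsd, chr7:142387908-142387937, minus strand: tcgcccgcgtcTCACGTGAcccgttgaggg
Gla, chrX:134601215-134601244, minus strand: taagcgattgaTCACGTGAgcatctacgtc
Mcoln1, chr8:3500462-3500491, plus strand: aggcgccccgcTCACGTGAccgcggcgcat
Lgmn, chr12:102439109-102439168, minus strand: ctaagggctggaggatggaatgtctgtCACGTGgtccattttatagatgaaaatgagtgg
Acp5, chr9:22130656-22130715, minus strand: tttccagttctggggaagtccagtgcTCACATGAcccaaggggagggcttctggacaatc
The other members with CACGTG were Arsa, Ctsl, Gaa, Glb1, Lamp1 and Naglu.

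In the annotation, Ctss overlaps a pseudogene on its strand (Hmgb1-ps5), and Ctsl (Gm49230) and Ctsd (Gm49369) also overlap genes on their own strand. Ctsl (Gm47123), Ctsc (Gm26522), Acp5 (6530413G14Rik), Ctsa (Neurl2 and Pltp) and Hexa (Tmem202) overlap genes on the opposite strand. Some members not named here also overlap genes, on the same or the opposite strand. The strand setting of the counting is not given in the sources used here, so reads of these partners cannot be told apart.

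The values are FPKM rescaled so that every library has the same total, which is the scale of TPM, and so they are per length and can be set side by side between genes. Read counts were not used here, so the depth is not known. A rough relative value, 0.918 to 1.07 of the median, came from genes whose low values lay close together across libraries. It assumes that such values stand for the same few reads. Choosing close values limits this spread in advance, so it does not show that the depths were alike. The libraries differed in total in a way that crossed the treatments, and no label names its source. The sum of the deposited FPKM values lay between 782919 and 921581 in 5 higher-sum libraries (control IgG replicates 4 and 7, IL10-Fc 7, aCSF1R 8 and BF10 6) and between 609695 and 648413 in the 7 lower-sum libraries. Mitochondrial transcripts took 5.90 to 9.26% of the higher-sum and 3.14 to 3.97% of the lower-sum libraries. With the groups in the model, 30 of the 41 members were lower and 0 were higher in the higher-sum set, where the background over all tested genes was 54.0% lower and 5.23% higher. The largest of these differences were those of Ctsz (−2.24 on the log2 scale), Ctsb (−2.10) and Psap (−1.89). Ctss (0.27), Ctsl (0.43), Lamp2 (0.43) and Asah1 (0.54) had values on the other side of 0. Since 2 of 3 control IgG libraries but 1 of 3 in each other group are higher-sum, the calls of members in every comparison are given below with and without the set as a term.

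**Figure D1:**
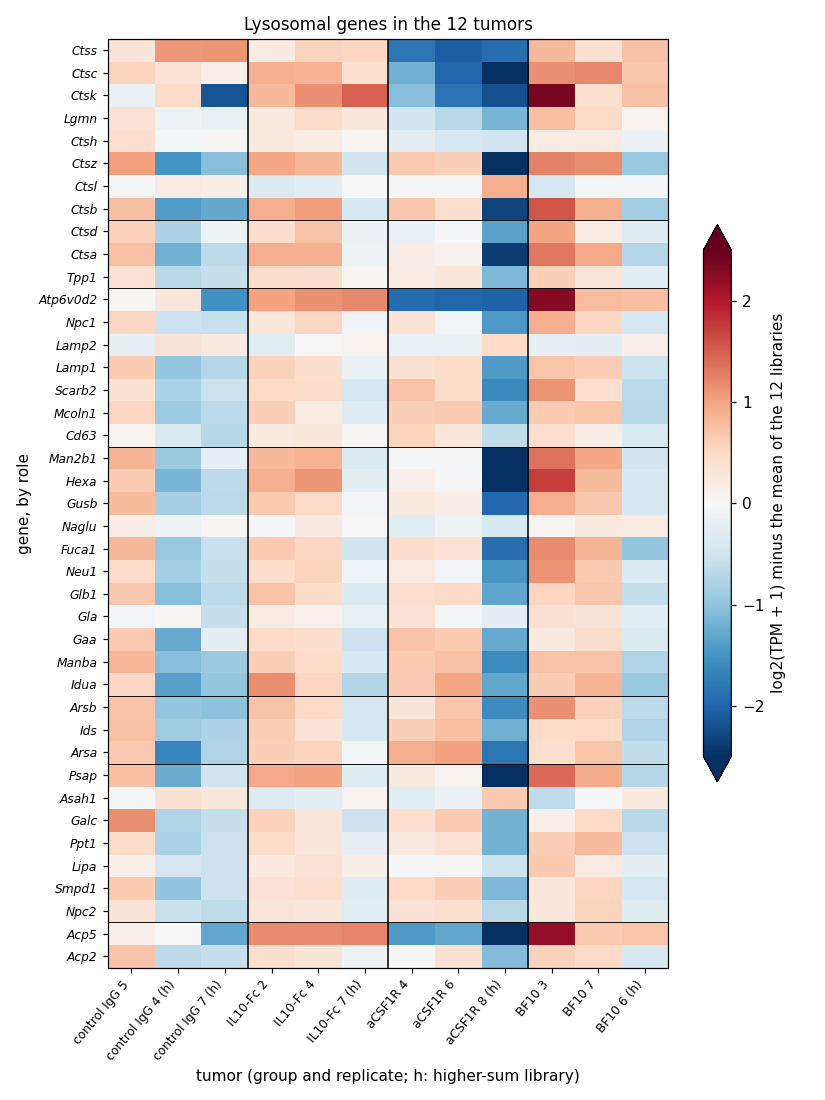
Heat map of the 41 lysosomal genes (rows, ordered by role) in the 12 tumors (columns, lower-sum libraries first within each group and higher-sum ones marked h). Colour is log2(TPM + 1) minus the mean of the 12 libraries, with the strongest colours standing for all values beyond the ends of the scale. The h columns are pale to dark blue for most genes in every group, while Ctss, Ctsc, Atp6v0d2 and Acp5 are blue in all 3 aCSF1R columns.

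The 41 genes together took between 0.464% (aCSF1R replicate 8) and 1.03% (BF10 replicate 3) of all transcripts. Their summed level was 5492 to 7702 TPM in control IgG, 6425 to 8234 TPM in IL10-Fc, 4641 to 6099 TPM in aCSF1R and 5706 to 10285 TPM in BF10, and these ranges overlap. Cathepsin L was the most abundant member in 11 libraries and prosaposin in 1, BF10 replicate 3. Single members ranged from Ctsl, at 963 to 2450 TPM, down to Idua, at 1.51 to 13.4 TPM.

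A member was called changed at an adjusted p below 0.05 (limma, Benjamini-Hochberg over 15504 genes) and a change of at least 1.5-fold. In tumors given aCSF1R, 2 members fell against control IgG, both cysteine proteases of antigen-presenting and other immune cells: cathepsin S (Ctss) and cathepsin C (Ctsc). The background was 0.568% of all tested genes lower and 0 higher. Against aCSF1R, 4 members rose in BF10, where the background was 0.735% higher, and the same 4 names rose in IL10-Fc, where it was 0.542%: Ctss, Ctsc, Acp5 and Atp6v0d2. These 3 comparisons share the aCSF1R libraries. Against control IgG, limma called 0 members in BF10 and 0 in IL10-Fc in either direction. The background of calls was 0 and 0.00645% of all tested genes. At an unadjusted p below 0.05 there were 3 members in BF10 and 3 in IL10-Fc, beside 1.51% and 1.44% of all tested genes. Between BF10 and IL10-Fc, 0 members and 0 of all genes were called, and 0 members had an unadjusted p below 0.05, beside 0.271% of all tested genes.

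**Figure D2:**
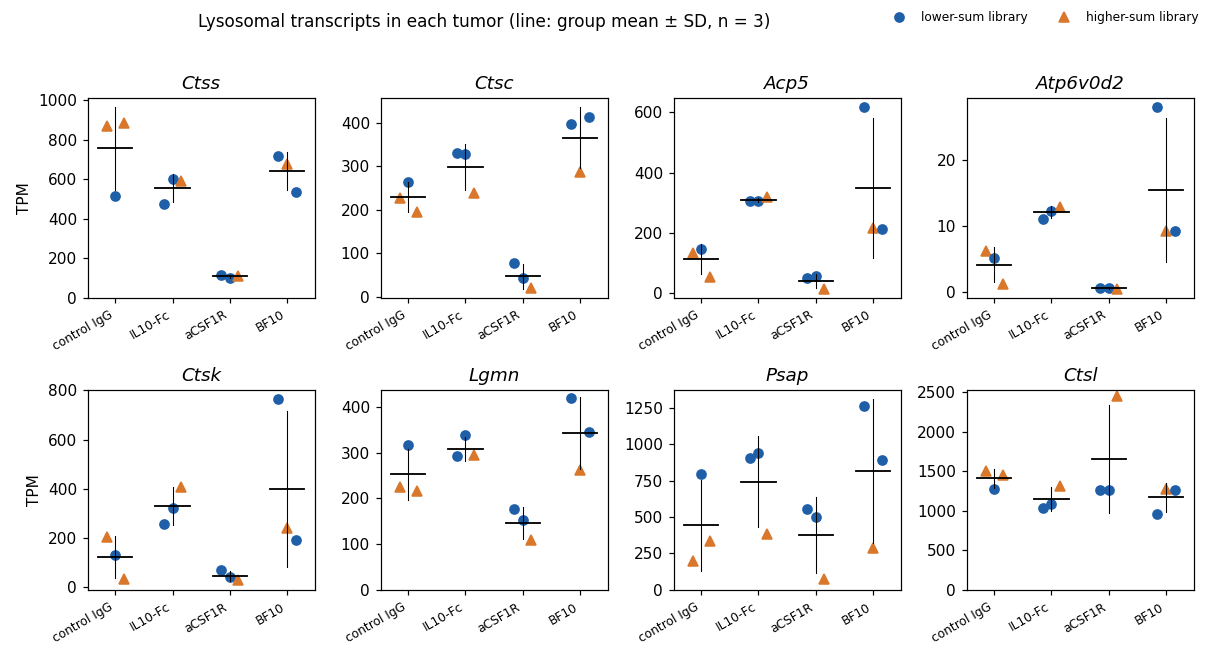
TPM of 8 members in each tumor, by group, on linear axes. Circles are lower-sum and triangles higher-sum libraries, horizontal lines are group means and vertical lines are ± SD over 3 tumors. Ctss and Ctsc are lowest in all 3 aCSF1R tumors, Acp5 and Atp6v0d2 are highest in the 6 IL10-Fc and BF10 tumors, and Ctsl has its 1 far value, 2450 TPM, in an aCSF1R tumor.

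Cathepsin S, which trims the invariant chain of class II molecules in antigen-presenting cells, is at chr3:95526786-95556403 (GRCm38, plus strand). In control IgG tumors it was at 870, 514 and 884 TPM (replicates in the order of their numbers), and in IL10-Fc tumors at 473, 602 and 593 TPM. In aCSF1R tumors it was at 117, 97.8 and 108 TPM, and in BF10 tumors at 719, 675 and 534 TPM. The 3 aCSF1R tumors were below all 9 others, and the other 3 groups overlapped. The mean was 7.03-fold lower in aCSF1R than in control IgG, a log2 change of −2.76 (SE 0.24, adjusted p = 4.59e-04), and it was −2.25 within the lower-sum and −3.01 within the higher-sum libraries. Against aCSF1R the change was 2.56 in BF10 (SE 0.24, adjusted p = 7.67e-04) and 2.35 in IL10-Fc (SE 0.24, adjusted p = 0.00175). With median-of-ratios scaling neither of these last 2 was called, and the BF10 call was also lost with the 2 groups alone. The call in aCSF1R against control IgG was lost with the lower-sum libraries alone and with the 2 groups alone. With the 2 groups alone its adjusted p was 0.0729 by limma.

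Cathepsin C, which activates the granule serine proteases of neutrophils, mast cells and cytotoxic lymphocytes, is at chr7:88278085-88310888 (plus strand). It was at 227, 264 and 195 TPM in control IgG and at 331, 327 and 238 TPM in IL10-Fc. In aCSF1R it was at 77.1, 44.5 and 20.9 TPM, and in BF10 at 397, 286 and 413 TPM. All aCSF1R tumors were again below the 9 others, and all BF10 tumors were above all control IgG tumors. The mean was 4.82-fold lower in aCSF1R than in control IgG (log2 change −2.42, SE 0.39, adjusted p = 0.0176), with −2.15 and −3.27 within the lower-sum and higher-sum sets. This call was lost without aCSF1R replicate 6, without any 1 of control IgG replicates 4, 5 and 7, with the lower-sum libraries alone and with the 2 groups alone (adjusted p up to 0.3). In BF10 and IL10-Fc it was higher than in aCSF1R by 3.08 (SE 0.39, adjusted p = 0.00446) and 2.80 (SE 0.39, adjusted p = 0.0101) on the log2 scale. The IL10-Fc call was lost without aCSF1R replicate 6 or IL10-Fc replicate 2 or 4, and both calls with 2 groups alone. Against control IgG the change in BF10 was 0.67 (95% interval −0.20 to 1.53, adjusted p = 0.789).

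Cathepsin K (Ctsk, chr3:95499256-95509362, plus strand), a collagen-degrading protease, lies next to Ctss on the same strand. It was at 205, 131 and 32.2 TPM in control IgG and at 257, 323 and 409 TPM in IL10-Fc. It was at 69.5, 40.0 and 31.2 TPM in aCSF1R and at 763, 243 and 193 TPM in BF10. Every BF10 and IL10-Fc tumor was above every aCSF1R tumor, and BF10 replicate 3 stood far above its group. The log2 change against aCSF1R was 2.87 in BF10 (SE 0.67, adjusted p = 0.128) and 2.84 in IL10-Fc (SE 0.67, adjusted p = 0.16), and both passed with the set as a term (adjusted p = 0.0377 and 0.0491). Against control IgG it was 1.78 in BF10 (95% interval 0.29 to 3.26) and 1.75 in IL10-Fc (0.27 to 3.23), with adjusted p = 0.789 and 0.738.

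Legumain (Lgmn, chr12:102394084-102439813, minus strand), an asparaginyl protease that processes cathepsins, was at 226, 317 and 217 TPM in control IgG and at 292, 339 and 296 TPM in IL10-Fc. It was at 178, 153 and 109 TPM in aCSF1R and at 420, 263 and 347 TPM in BF10. The aCSF1R tumors were below all 9 others, with a log2 change of −0.79 against control IgG (SE 0.25, adjusted p = 0.598) that became −0.94 and passed with the set as a term (adjusted p = 0.00531). Cathepsin H (Ctsh, chr9:90054152-90076089, plus strand), an aminopeptidase, was at 224, 305 and 235 TPM in control IgG, 272, 261 and 239 TPM in IL10-Fc, 194, 172 and 163 TPM in aCSF1R and 262, 207 and 264 TPM in BF10. Its aCSF1R tumors too were below all others, by a log2 change of −0.52 against control IgG (SE 0.19, adjusted p = 0.894) and of −0.61 with the set as a term (adjusted p = 0.0133).

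In the 3 remaining members of this group the aCSF1R tumors overlapped every other group. Cathepsin L (Ctsl, chr13:64359337-64370890, minus strand), a broad endopeptidase, was at 1504, 1270 and 1456 TPM in control IgG and at 1035, 1080 and 1319 TPM in IL10-Fc. It was at 1262, 1267 and 2450 TPM in aCSF1R and at 963, 1276 and 1268 TPM in BF10, so that all groups overlapped and aCSF1R replicate 8 stood apart. It had the smallest p among members that were lower in BF10 (−0.44) and in IL10-Fc (−0.47) than in aCSF1R, with adjusted p = 1 in each. Cathepsin B ranged from 51.8 to 786 TPM and cathepsin Z from 23.9 to 330 TPM over the 12 libraries, and in both the lowest and the highest value were in aCSF1R replicate 8 and BF10 replicate 3. The median log2 change of the 8 genes against control IgG was −0.66 in aCSF1R, beside 0.24 over all tested genes, and with the set as a term −0.80 beside 0.01.

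**Figure D3:**
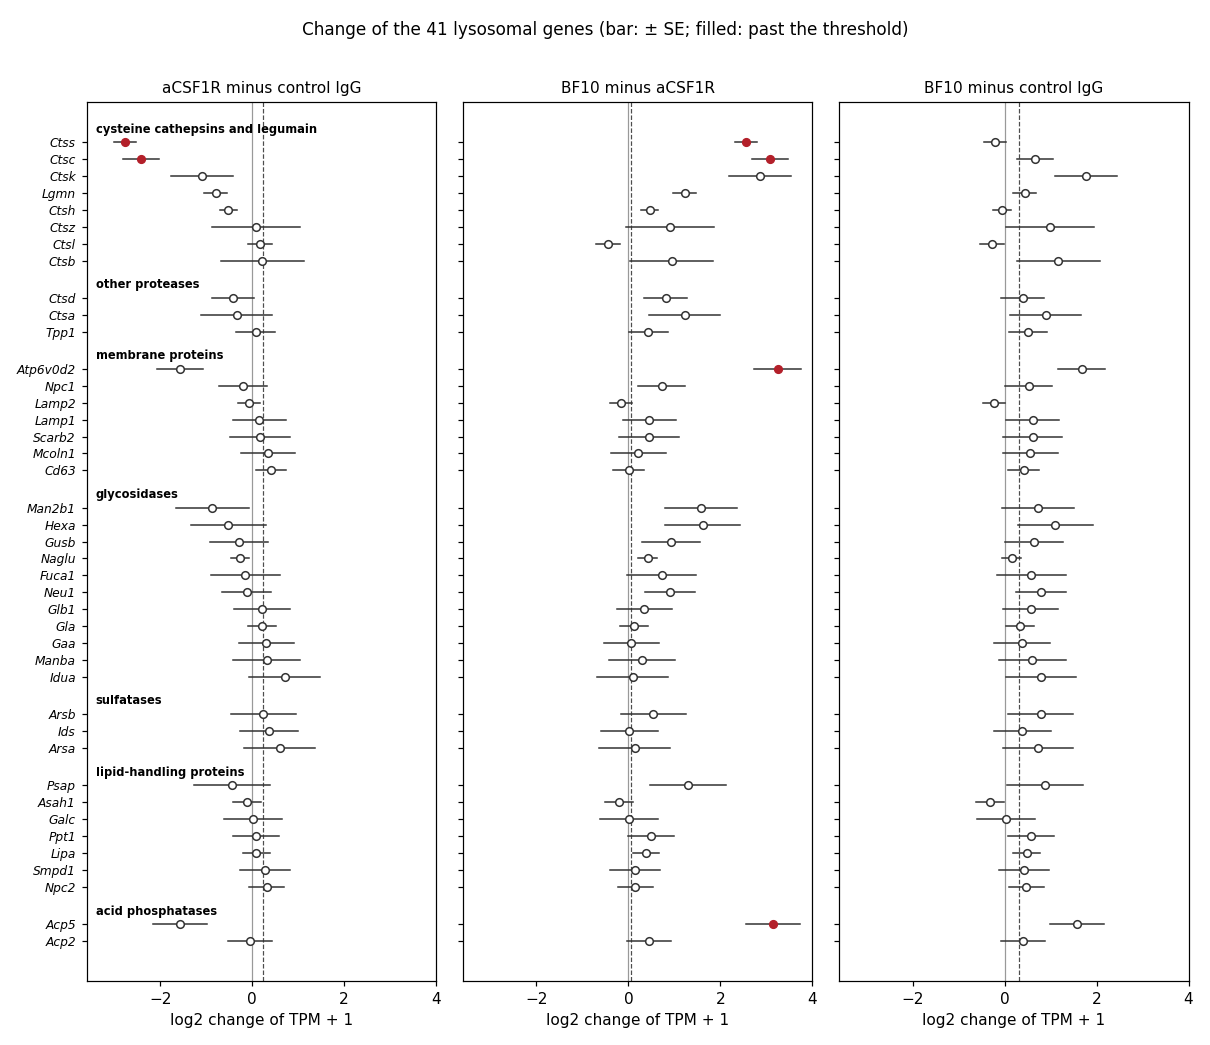
Log2 change of TPM + 1 of the 41 members, grouped by role, for aCSF1R minus control IgG, BF10 minus aCSF1R and BF10 minus control IgG. Points are estimates with bars of ± SE, filled where past the threshold, and the dashed line is the median over all tested genes. The filled points are Ctss and Ctsc in the first panel and Ctss, Ctsc, Atp6v0d2 and Acp5 in the second, and the third has none.

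Among the other proteases, cathepsin D (Ctsd, chr7:142375911-142388038, minus strand), the main aspartyl protease of lysosomes, was the most abundant. It was at 194, 493 and 303 TPM in control IgG, 449, 539 and 296 TPM in IL10-Fc, 293, 319 and 129 TPM in aCSF1R and 650, 267 and 376 TPM in BF10, and all groups overlapped. Cathepsin A (Ctsa, chr2:164832873-164841032, plus strand), a carboxypeptidase that also protects beta-galactosidase, was at 39.2, 152 and 57.4 TPM in control IgG and at 172, 168 and 82.7 TPM in IL10-Fc. It was at 102, 97.9 and 16.7 TPM in aCSF1R and at 227, 55.3 and 177 TPM in BF10. Each group's lowest value or values were its higher-sum libraries. The log2 change of Ctsa in BF10 against aCSF1R was 1.22 (SE 0.77, adjusted p = 1) and passed with the set as a term (adjusted p = 0.0304). Tpp1, a tripeptidyl peptidase, ranged from 15.1 to 52.5 TPM.

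Atp6v0d2 (chr4:19876841-19922605, minus strand), a V-ATPase subunit of osteoclasts and some macrophages, was the membrane protein that changed. It was at 6.18, 5.10 and 1.11 TPM in control IgG and at 11.1, 12.3 and 12.9 TPM in IL10-Fc. In aCSF1R it was at 0.585, 0.509 and 0.477 TPM, and in BF10 at 28.0, 9.15 and 9.18 TPM. The order was complete between the groups: each aCSF1R tumor was below each control IgG tumor, and each control IgG tumor was below each IL10-Fc and BF10 tumor, while IL10-Fc and BF10 overlapped. The log2 change against aCSF1R was 3.24 in BF10 (SE 0.51, adjusted p = 0.0132) and 3.10 in IL10-Fc (SE 0.51, adjusted p = 0.0219). The BF10 call was lost without BF10 replicate 3 or aCSF1R replicate 4 or 6, and with 2 groups alone (adjusted p up to 0.15 over all alternatives). The IL10-Fc call was lost without any 1 of the 6 libraries compared, and with no filter on low values (up to 0.122). Both were lost with the lower-sum libraries alone and with the replicate block. Against control IgG it was the smallest p among members that were higher, with 1.67 in BF10 (95% interval 0.55 to 2.79, adjusted p = 0.789) and 1.53 in IL10-Fc (0.41 to 2.65, adjusted p = 0.738), and it was −1.57 in aCSF1R (−2.69 to −0.45, adjusted p = 0.615). The log2(TPM + 1) scale understates the change of a gene this low.

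The groups overlapped in every comparison for the 6 other membrane proteins. The tetraspanin Cd63 (chr10:128900989-128912822, plus strand), the most abundant of them, was at 440, 586 and 338 TPM in control IgG, 650, 681 and 569 TPM in IL10-Fc, 820, 690 and 362 TPM in aCSF1R and 752, 441 and 620 TPM in BF10. It was the member with the smallest p among those higher in aCSF1R than in control IgG, with a log2 change of 0.41 (SE 0.33, adjusted p = 0.894). Over the 12 libraries Lamp1 ranged from 97.8 to 430 TPM, Lamp2 from 171 to 291 TPM, Scarb2 (which carries beta-glucocerebrosidase) from 5.64 to 43.4 TPM, the calcium channel Mcoln1 from 13.1 to 53.4 TPM and the cholesterol exporter Npc1 from 3.80 to 23.5 TPM. Between the library sets the log2 difference of Lamp1, which was called lower in the higher-sum set, and that of Lamp2, which was not called, had opposite signs.

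Tartrate-resistant acid phosphatase (Acp5, chr9:22126727-22135711, minus strand) was at 133, 147 and 53.9 TPM in control IgG and at 305, 306 and 317 TPM in IL10-Fc. It was at 50.1, 54.2 and 13.7 TPM in aCSF1R and at 617, 217 and 212 TPM in BF10. Each of the 6 IL10-Fc and BF10 tumors was above each of the 6 control IgG and aCSF1R tumors. The log2 change against aCSF1R was 3.15 in BF10 (SE 0.58, adjusted p = 0.0367) and 3.17 in IL10-Fc (SE 0.58, adjusted p = 0.0437), close to the threshold. Leaving out any 1 of 10 of the 12 libraries took each of these 2 calls past 0.05, the others being control IgG replicates 5 and 7 for BF10 and BF10 replicate 3 and control IgG replicate 7 for IL10-Fc. Against control IgG it was 1.57 in BF10 (95% interval 0.29 to 2.86) and 1.59 in IL10-Fc (0.31 to 2.88), with adjusted p = 0.789 and 0.738. Acp2, the other lysosomal acid phosphatase, ranged from 7.59 to 28.5 TPM, and its log2 change in BF10 against aCSF1R was 0.46 (SE 0.48).

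The 2 members in which all IL10-Fc and BF10 tumors were above all control IgG and aCSF1R tumors were thus Acp5 and Atp6v0d2, a pattern that 0.206% of all tested genes had. The 5 members in which all aCSF1R tumors were below all others were Ctss, Ctsc, Ctsh, Lgmn and Atp6v0d2, a pattern of 2.46% of all tested genes. The reverse patterns were found in 0 members, with 0.0580% and 0.252% of all genes.

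The glycosidases, which remove sugars from glycoproteins, glycolipids and glycosaminoglycans, had 0 of 11 members called in any comparison. Beta-glucuronidase (Gusb, chr5:129989011-130003049, minus strand), the most abundant, was at 33.7, 106 and 37.5 TPM in control IgG, 95.4, 84.5 and 58.2 TPM in IL10-Fc, 70.9, 68.3 and 14.8 TPM in aCSF1R and 114, 46.4 and 96.6 TPM in BF10. Its higher-sum libraries were the lowest of every group. Alpha-mannosidase (Man2b1, chr8:85083270-85098282, plus strand) was at 21.2, 74.8 and 35.7 TPM in control IgG, 73.3, 76.1 and 32.0 TPM in IL10-Fc, 40.5, 39.9 and 5.04 TPM in aCSF1R and 108, 29.7 and 82.0 TPM in BF10. Its groups overlapped, and within the sets its change in aCSF1R against control IgG was −0.88 and −2.24. The pooled change was −0.86 (SE 0.79, adjusted p = 0.894), and with the set as a term it was −1.45 (adjusted p = 0.0416). Hexosaminidase A (Hexa, chr9:59539540-59565109, plus strand), the enzyme deficient in Tay-Sachs disease, was at 19.9, 70.4 and 28.1 TPM in control IgG, 84.1, 97.4 and 38.3 TPM in IL10-Fc, 49.1, 43.7 and 5.64 TPM in aCSF1R and 151, 34.1 and 79.0 TPM in BF10. Its groups overlapped too, and its log2 change in BF10 against aCSF1R was 1.62 (SE 0.82, adjusted p = 1), which passed with the set as a term (adjusted p = 0.0227). The highest values of the other 8, in order, were 119 TPM for Fuca1, 58.1 TPM for Glb1, 57.6 TPM for Gaa, 31.6 TPM for Naglu, 27.1 TPM for Neu1, 23.5 TPM for Manba, 13.4 TPM for Idua and 11.4 TPM for Gla.

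The sulfatases had 0 of 3 members called. Arylsulfatase A (Arsa, chr15:89472476-89477425, minus strand), which acts on sulfatides, was at 9.56, 50.4 and 18.4 TPM in control IgG, 48.2, 47.0 and 30.8 TPM in IL10-Fc, 59.4, 63.8 and 8.28 TPM in aCSF1R and 42.6, 20.1 and 51.2 TPM in BF10. Its aCSF1R group thus held both the highest and the lowest of the 12 values. Arsb ranged from 3.97 to 31.6 TPM and Ids from 3.95 to 18.1 TPM.

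The lipid-handling proteins had 0 of 7 members called. Prosaposin (Psap, chr10:60277627-60302597, plus strand), the precursor of the saposins that present sphingolipids to their hydrolases, was at 198, 793 and 334 TPM in control IgG and at 905, 938 and 383 TPM in IL10-Fc. It was at 552, 503 and 76.6 TPM in aCSF1R and at 1264, 285 and 892 TPM in BF10. The groups overlapped, but within each set the BF10 libraries were above the aCSF1R ones, by a log2 of 1.01 and 1.88. The pooled change in BF10 against aCSF1R was 1.3 (SE 0.83, adjusted p = 1) and passed with the set as a term (adjusted p = 0.0366). Acid ceramidase (Asah1) ranged from 145 to 359 TPM and had the smallest p among members lower in BF10 than in control IgG, with a log2 change of −0.32 (SE 0.30, adjusted p = 0.789). The cholesterol carrier Npc2 ranged from 121 to 290 TPM, the thioesterase Ppt1 from 19.5 to 80.0 TPM, lysosomal acid lipase (Lipa) from 20.4 to 47.7 TPM, acid sphingomyelinase (Smpd1) from 5.86 to 22.6 TPM and galactocerebrosidase (Galc) from 4.49 to 26.9 TPM.

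With the library set as a term, more members and more genes of the whole table were called. In aCSF1R against control IgG, 5 members fell (Ctss, Ctsc, Lgmn, Ctsh and Man2b1), where the background was 1.93% lower and 0.0774% higher. In BF10 against aCSF1R, 10 members rose (Ctss, Ctsc, Ctsk, Lgmn, Ctsa, Atp6v0d2, Acp5, Man2b1, Hexa and Psap), where it was 2.77% higher and 0.0516% lower, and the same 10 names rose in IL10-Fc against aCSF1R, where it was 2.12% higher and 0.0129% lower. In BF10 and IL10-Fc against control IgG and in BF10 against IL10-Fc, 0 members were called, and the backgrounds were 0, 0.0193% and 0 higher and 0.00645%, 0.00645% and 0 lower. Of the 10 that rose in BF10, 9 had a promoter in the table, and 2 of these 9 held CACGTG, against 9 of 27 other members with a promoter. Neither Ctss nor Ctsc held it in the 250 bases searched, and of the members whose windows are shown, Ctsa, Lgmn and Acp5 are among the 10.

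**Figure D4:**
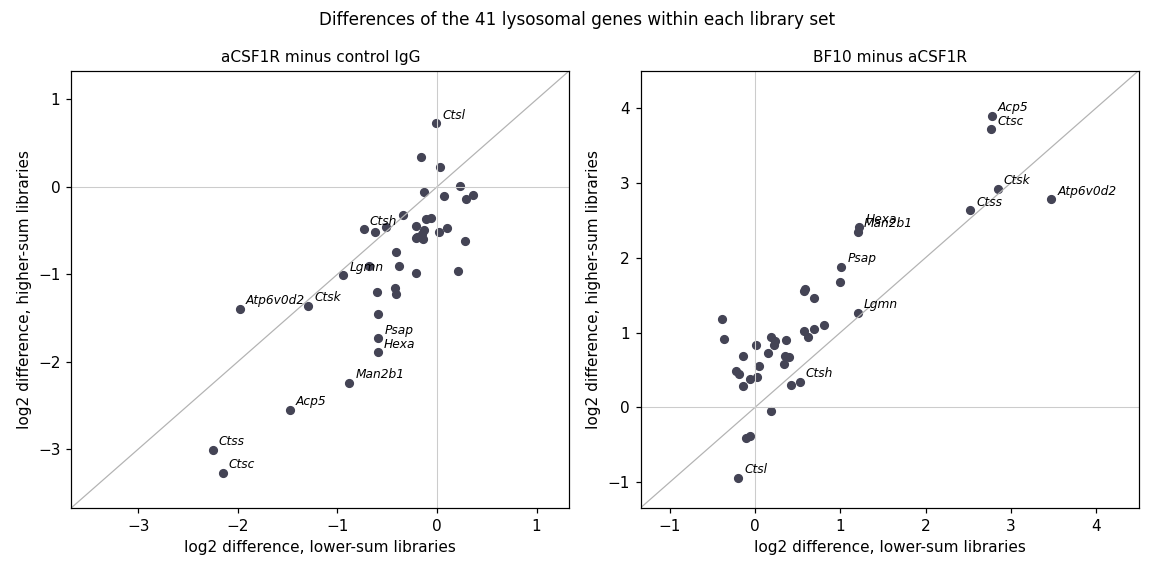
Differences of log2(TPM + 1) of the 41 members within the lower-sum libraries (x axis) and within the higher-sum libraries (y axis), for aCSF1R minus control IgG (left) and BF10 minus aCSF1R (right). The diagonal marks equal values, and a group has 1 or 2 libraries in a set, so no error is shown. Ctss and Ctsc lie below −2 on both axes on the left, and Ctss, Ctsc, Ctsk, Acp5 and Atp6v0d2 lie above 2 on both axes on the right.

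Over all 41 members the median log2 change against control IgG was 0.56 in BF10, 0.50 in IL10-Fc and 0.02 in aCSF1R, beside 0.32, 0.35 and 0.24 over all tested genes. With the set as a term these medians became 0.18, 0.11 and −0.30, beside 0.07, 0.10 and 0.01, so the sign in aCSF1R depended on the term. It was also below 0 with median-of-ratios scaling (−0.20) and with FPKM left unscaled (−0.15). Leaving out 1 library moved the median from 0.33 to 0.96 in BF10 (without control IgG replicate 4 and BF10 replicate 6), from 0.26 to 0.93 in IL10-Fc (without control IgG replicates 4 and 5) and from −0.21 to 0.49 in aCSF1R (without aCSF1R replicates 4 and 8). With median-of-ratios scaling it was 0.20 in BF10 and 0.07 in IL10-Fc, and with the lower-sum libraries alone 0.17 and −0.04, so the sign in IL10-Fc too depended on the libraries. Against aCSF1R, where each group has 1 higher-sum library, 38 of 41 members had values above 0 in BF10 and 38 in IL10-Fc. Above the median over all tested genes were 35 members in BF10 and 34 in IL10-Fc. The medians of the members against aCSF1R were 0.46 in BF10 and 0.44 in IL10-Fc, beside 0.06 and 0.11 over all tested genes. Without aCSF1R replicate 8, the higher-sum library of its group, these medians were −0.005 and −0.009, and leaving out any other library gave up to 0.85 in BF10 (without BF10 replicate 6) and 0.78 in IL10-Fc (without aCSF1R replicate 6). Within the lower-sum and the higher-sum libraries the median in BF10 against aCSF1R was 0.36 and 0.90.

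The aCSF1R antibody and BF10 can be compared directly, as can IL10-Fc and BF10. Groups that did not overlap were found for 8 members in BF10 against aCSF1R, all higher in BF10 (background 4.33% higher, 1.58% lower), and for 9 in IL10-Fc against aCSF1R, all higher in IL10-Fc (5.90% higher, 1.60% lower). In aCSF1R against control IgG there were 5, all lower in aCSF1R (3.68% lower, 1.61% higher). In BF10 against control IgG there were 3, all higher in BF10 (2.36% higher, 1.17% lower), and in IL10-Fc against control IgG 4, all higher in IL10-Fc (4.75% higher, 1.78% lower). In BF10 against IL10-Fc there were 0 such members (0.619% higher, 1.51% lower). There the smallest p among members with a higher value was that of Ctss, with a log2 change of 0.21 (95% interval −0.33 to 0.74, adjusted p = 1), and among those with a lower value that of Ctsh, with −0.08 (−0.50 to 0.34, adjusted p = 1). For Acp5 the interval of this difference was −1.31 to 1.26, for Atp6v0d2 −0.98 to 1.26 and for Ctsc −0.57 to 1.15, so that changes of more than 1.5-fold lay within the first 2 in both directions and within the third upward.

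Genes outside the 41 that serve the same organelle were described from further lists. Of 4 MiT family factors, Tfec was called. It was at 9.26, 6.97 and 8.50 TPM in control IgG, 6.77, 5.94 and 5.33 TPM in IL10-Fc, 1.01, 1.07 and 0.998 TPM in aCSF1R and 7.32, 5.97 and 4.46 TPM in BF10. All aCSF1R tumors were below all others, with a log2 change of −2.18 against control IgG (SE 0.25, adjusted p = 0.00249), and BF10 was higher than aCSF1R by 1.75 (SE 0.25, adjusted p = 0.00833) and IL10-Fc by 1.79 (SE 0.25, adjusted p = 0.0106). Tfe3, the most abundant of the 4, ranged from 6.77 to 39.8 TPM and was not called. Of 20 other lysosomal hydrolases and transporters 0 were called in any comparison. With the set as a term 4 of the 20 fell in aCSF1R against control IgG (background 1.93% lower). Against aCSF1R, 4 rose in BF10 (background 2.77% higher) and 3 in IL10-Fc (2.12% higher). Gm2a, Dnase2a and Laptm5 were among those that fell in aCSF1R against control IgG and rose in BF10 against aCSF1R. The most abundant of the 20, Laptm4a, ranged from 245 to 346 TPM. Of 16 further V-ATPase subunits 0 were called. With the set as a term Atp6v0c and Atp6v1b2 rose in BF10 (background 2.77% higher) and Atp6v0c in IL10-Fc (2.12% higher) against aCSF1R. The median log2 change of the 16 in BF10 against aCSF1R was 0.29, beside the 3.24 of Atp6v0d2. The most abundant of the 16, Atp6v0c, ranged from 134 to 433 TPM. Of 6 genes of mannose 6-phosphate sorting and of 4 inhibitors of cysteine cathepsins 0 were called in any comparison. With the set as a term 1 sorting gene, Nagpa, which uncovers the tag, rose in BF10 and in IL10-Fc against aCSF1R. The backgrounds there were again 2.77% and 2.12% higher. M6pr, the receptor for the tag, ranged from 49.7 to 136 TPM, and cystatin C (Cst3) from 540 to 963 TPM.

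In bulk tissue, fewer cells of a type and less RNA per cell cannot be told apart. The 10 macrophage markers summed to 1801 to 2289 TPM in control IgG, 1493 to 1680 TPM in IL10-Fc, 83.7 to 259.5 TPM in aCSF1R and 1766 to 1854 TPM in BF10, and 7 of the 10 fell in aCSF1R against control IgG, with a median log2 change of −2.98. The sums thus fell with Ctss and Ctsc in the aCSF1R tumors, and their part in these changes was not tested. Of 5 osteoclast markers 4 were tested, and 3 of these (Oscar, Dcstamp and Ocstamp) rose in BF10 and in IL10-Fc against aCSF1R, while Calcr, the calcitonin receptor that defines mature osteoclasts, was at or below 0.141 TPM in every library and at 0 in all 3 aCSF1R libraries. These 5 summed to 4.09 to 13.3 TPM in control IgG, 25.1 to 25.4 TPM in IL10-Fc, 0.846 to 12.1 TPM in aCSF1R and 17.1 to 46.6 TPM in BF10. The sums in aCSF1R and control IgG overlapped. The fourth tested marker, Itgb3, was not called, with log2 changes of 0.49 in aCSF1R against control IgG and of 0.24 in BF10 and 0.41 in IL10-Fc against aCSF1R. Oscar, Dcstamp and Ocstamp thus rose with Acp5 and Atp6v0d2 in BF10 and IL10-Fc against aCSF1R, and their part was not tested. BF10 replicate 3, the highest library for Acp5, Atp6v0d2 and Ctsk, also had the highest sums of neutrophil markers (16420 TPM, against 426 to 3338 TPM in the 11 others) and fibroblast markers (9106 TPM, against 843 to 5844 TPM). Of the tested dendritic cell, T cell, neutrophil, fibroblast, endothelial and epithelial markers 0 were called in any comparison. Only 3 of the 5 dendritic cell markers were tested, and the 5 summed to 2.83 to 9.54 TPM. Across all lists, 0 markers were at 0 in all 12 libraries. The epithelial markers, which 4T1 cells carry, summed to 662 to 2225 TPM.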

How the data were processed

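RNA was isolated with TRIzol by the authors, made into stranded mRNA libraries, read on an Illumina NextSeq and aligned to mm10 (GRCm38). The submitters' processing notes name STAR 2.7.5a, RSEM 1.3.3 and DESeq2 1.28.0, with no role given. The authors deposited FPKM values per gene for 12 libraries, and 0 columns were left unmatched. The strand setting used in counting is not given in the sources used here. A further 4 deposited tables hold the authors' DESeq2 comparisons (fold changes and p-values) and were not used.

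FPKM values were rescaled to the same sum of 1000000 in every library (TPM scale). Genes with at least 1 TPM in at least 3 libraries were tested, 15504 of the 34194 with a value above 0. Group means were estimated on log2(TPM + 1) by limma 3.58.1 (eBayes, mean trend, R 4.3.3) from the 12 libraries together. It was tested on simulated data with independent noise and no library sets, so that test does not cover the set differences seen here. Calls needed a Benjamini-Hochberg adjusted p below 0.05 over all tested genes and a change of at least 1.5-fold, the thresholds in the study's methods. The library set was defined by a deposited FPKM sum above 700000. Gene positions are from GENCODE vM21 (GRCm38), promoters from RefSeq (GRCm38.p6). Named were every member past the threshold or, where a direction had none, the one with the smallest unadjusted p, and values per library were given for members past it in any comparison, with or without the set as a term, and for the most abundant of each role. The members and lists were chosen with earlier results of these data known. Alternatives were another scaling, no rescaling, a pseudocount of 0.1, no filter, the set as a term, lower-sum libraries alone, 2 groups alone, a replicate block, the adjusted p alone and leaving out each library. With no counts, depth intervals could not be given. Some single genes of the further lists are named in no result, as they are not reported here.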

Additional observations from a re-analysis of the deposited data

How the results depend on the processing

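The 2 members past the threshold in aCSF1R against control IgG became 5 with the library set as a term, 0 with the lower-sum libraries alone and 0 with the 2 groups alone, and 1 to 2 without 1 library (1, Ctss, without aCSF1R replicate 6 or any of control IgG replicates 4, 5 and 7). The 4 in BF10 against aCSF1R became 10 with the set as a term, 0 with 2 groups alone, 2 with the replicate block, and 2 to 5 without 1 library (2 without BF10 replicate 3, aCSF1R replicate 4 or aCSF1R replicate 6). The 4 in IL10-Fc against aCSF1R became 10 with the set as a term and 2 with no filter, with the lower-sum libraries alone, with 2 groups alone and with the replicate block, and 1 to 4 without 1 library (1 without aCSF1R replicate 6 or IL10-Fc replicate 2 or 4, and 2 without aCSF1R replicate 4 or 8 or IL10-Fc replicate 7). The counts of 0 stayed at 0 without any 1 library. The samples share only replicate numbers: over 7 same-numbered pairs the correlation of deviations ran from −0.66 to 0.42, below 0 where the pair spans both library sets, and the block correlation was −0.37. Of single members, the change of Ctss in IL10-Fc against control IgG turned to 0.053 with the lower-sum libraries alone, and that of Ctsh in BF10 against IL10-Fc to 0.034 without BF10 replicate 6 (−0.140 to 0.034 without 1 library). Over 20 alternatives, Acp5 lost its call in 14 in BF10 and 14 in IL10-Fc against aCSF1R, Atp6v0d2 in 6 and 9, Ctsc in 1 and 4 and Ctss in 2 and 1. Against control IgG in aCSF1R, Ctsc lost its call in 6 (adjusted p up to 0.3) and Ctss in 2 (up to 0.0729). The causes were not tested. The fits of 2 groups or 1 set also held fewer samples. Groups of 3 tumors and the unknown counts limit what could be detected.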
